A study of Bos taurus with 11 samples.

Results

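The cytoplasmic translation initiation factors (eIF) and elongation factors (eEF) were examined in bovine endometrium, the inner lining of the uterus. Members were the genes of all non-control probes whose name on the array begins with EIF or EEF followed by a digit, which gave 62 of the 25325 names on the array, measured by 172 of 43653 non-control probes. Of these, 9 probes of 4 genes (EIF2C1 to EIF2C4) carry an old symbol of the Argonaute proteins, which act in gene silencing by small RNAs. The other 163 probes belong to 58 translation factor genes and their direct regulators. Membership was decided by name only and by no measured value, although the rule was chosen with earlier results of these data known.

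Biopsies were taken on day 7 of the oestrous cycle and each cow had 1 array. The subfertile group held 5 cows that had failed to conceive in 3 attempts in a row by embryo transfer or insemination, although no abnormality of the genital tract was found and their cycles appeared normal. The 6 fertile cows had conceived within 3 attempts and did so again at the first transfer after the biopsy. The labels give no breed, age or treatment for either group. A biopsy holds several cell types, so that fewer cells of a type and less RNA per cell cannot be told apart.

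Initiation begins when eIF2 carries the initiator tRNA to the small ribosomal subunit, which is held ready by eIF3, eIF1 and eIF1A. The eIF4F complex binds the mRNA cap and unwinds the leader so that the subunit can scan for the start codon, and eIF6 keeps the large subunit apart until it is needed. During elongation eEF1A brings each charged tRNA, eEF1B reloads eEF1A with GTP, eEF2 moves the ribosome along, and eIF5A helps at sequences on which the ribosome slows. Cells tune this machinery through kinases of eIF2 alpha, through binding proteins that sequester eIF4E, and through EEF2K, the kinase that inhibits eEF2.

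The probes are designed 60-base oligonucleotides, and a gene is often covered by several. Positions are given as the first base of the probe in its target sequence, and genome positions are those of the array's design on build HGSC Btau_3.1. No gene models of that build were used here. Some probes of a gene overlap but differ at single bases, and the EEF1A1 probes at bases 638 and 660 (chr9:12615581-12615718 and chr9:12615559-12615696, minus strand) and at bases 1213 and 1238 (chr9:12614826-12614885 and chr9:12614801-12614860, minus strand) are shown because their differences between the groups can be set side by side. Capitals mark the bases at which the overlapping probes differ.
EEF1A1 base 638: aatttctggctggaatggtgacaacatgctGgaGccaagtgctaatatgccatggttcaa
EEF1A1 base 660: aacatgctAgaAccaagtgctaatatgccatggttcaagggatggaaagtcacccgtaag
EEF1A1 base 1213: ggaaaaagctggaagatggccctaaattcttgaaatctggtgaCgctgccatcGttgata
EEF1A1 base 1238: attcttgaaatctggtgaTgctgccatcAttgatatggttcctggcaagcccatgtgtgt
Counted from 1 at the 5′ end of the shared stretch, with the base of the upstream probe first, the substitutions were G9A and G12A for the first pair and C19T and G29A for the second.

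For EIF2S1 and EIF4A2 the shared stretches are shown, with substitution C16G in the first and A5G and T25G within the bases printed of the second.
EIF2S1 base 1532: cagaggcactcaaagCgaatagtt
EIF2S1 base 1568: cagaggcactcaaagGgaatagtt
EIF4A2 base 1410: agtcAtgagctcttgtgaggaaagTcattg
EIF4A2 base 1412: agtcGtgagctcttgtgaggaaagGcattg
The last set holds probes on which results below rest. These are the probe of EIF5A with the largest difference (chr19:27396576-27396858, plus strand), a pair of EIF6 probes that do not overlap (chr13:65133143-65133202 and chr13:65132870-65133116, minus strand), and a probe named EEF1B2 that is placed on the minus strand (chr2:99568507-99568566), whereas the other EEF1B2 probes are placed on the plus strand.
EIF5A base 392: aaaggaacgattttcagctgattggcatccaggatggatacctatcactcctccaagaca
EIF6 base 436: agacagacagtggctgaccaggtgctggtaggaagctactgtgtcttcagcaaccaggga
EIF6 base 522: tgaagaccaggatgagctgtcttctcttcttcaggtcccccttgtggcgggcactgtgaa
EEF1B2 base 1023: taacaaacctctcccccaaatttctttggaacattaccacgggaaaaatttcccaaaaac

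The arrays of the groups differed in overall signal and in when they were scanned, and this touches every result. The median processed signal was 54.3 to 92.7 on subfertile arrays and 161 to 452 on fertile arrays. All subfertile arrays shared 1 scan day and came from 3 slides. The 5 fertile arrays with a known slide came from 3 further slides and 3 further days. The slide and scan day of fertile cow 6 are not known. Of the known slides 0 held both groups, so that slide, scan day and group cannot be told apart. No member spot was flagged as saturated. Levels are log2 processed signal minus the 75th percentile of the array, so that 0 is the 75th percentile, and differences are subfertile minus fertile on that scale. Quantile normalization, which gives all arrays the same distribution, was set beside it for every member.

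Of the 172 probes, 156 from 58 genes were well above background on at least 5 of the 11 arrays and were tested, and 148 were above it on all 11. The 16 untested probes include all those of EEF1A2, the elongation factor of muscle and nerve (1 of 5 subfertile and 1 of 6 fertile arrays at most on any of its 3 probes), of EIF5A2, and of EIF1AY and EIF2S3Y, which are Y-linked copies and were above background on 0 arrays. EIF5A2 was above it on 0 subfertile arrays and 4 fertile arrays.

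More factor probes were higher than lower in subfertile cows with 75th percentile scaling, and about as many were higher as lower with quantile normalization. At a limma adjusted p below 0.05, 40 of the 156 probes (25.6%) were higher in subfertile cows, against 14.8% of all 31877 tested probes, and 11 (7.05%) were lower, against 7.38% of all. With quantile normalization 15 probes (9.62%) were higher, against a background of 10.2%, and 14 (8.97%) were lower, against 9.87%. The median difference of the members was 0.22, beside 0.07 for all tested probes, and with quantile normalization it was 0.08 beside -0.01. With normexp background correction the members lay below the background instead, with 60 probes (38.5%) higher, against 46.8% of all, 10 (6.41%) lower, against 6.78%, and a median of 0.21 beside 0.33. In a model with slide as a random effect 24 (15.4%) were higher, against 8.52% of all, and 3 (1.92%) were lower, against 3%. With scan day as a random effect 9 (5.77%) were higher, against 2.47% of all, and 0 were lower, against 0.599%. The groups did not overlap at 36 member probes (23.1%), against 13.5% of all tested probes.

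The probes that passed with both scalings form a smaller list of 15 higher and 11 lower (9.62% and 7.05% of members, against 10.2% and 7.36% of all tested probes). The higher ones are EIF6 (3 probes), EEF1D (2 probes), and 1 probe each of EIF5A, EIF4A1, EIF4A3, EIF3B, EIF3E, EIF3I, EIF2B2, EIF2S1, EIF4H and EEF1B2. That EEF1B2 probe is the minus-strand one at base 1023, and whether its signal comes from EEF1B2 was not tested. The other 2 EEF1B2 probes were below 0 with quantile normalization. The lower ones are EIF4E2 (2 probes) and 1 probe each of EEF2K, EIF1AX, EIF2S2, EIF2B4, EIF3A, EIF3J, EIF4ENIF1, EIF4G2 and EIF2C2. In all, with 75th percentile scaling 21 genes had a probe that passed as higher, 10 genes had one that passed as lower, and 0 genes had both. With only the brightest probe of each of the 58 genes, 18 were higher and 4 lower, and 6 and 4 with quantile normalization. Over all 18505 named targets with 1 probe each, 14.2% were higher and 7.88% lower, and 9.67% and 10.3% with quantile normalization.

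**Figure D1:**
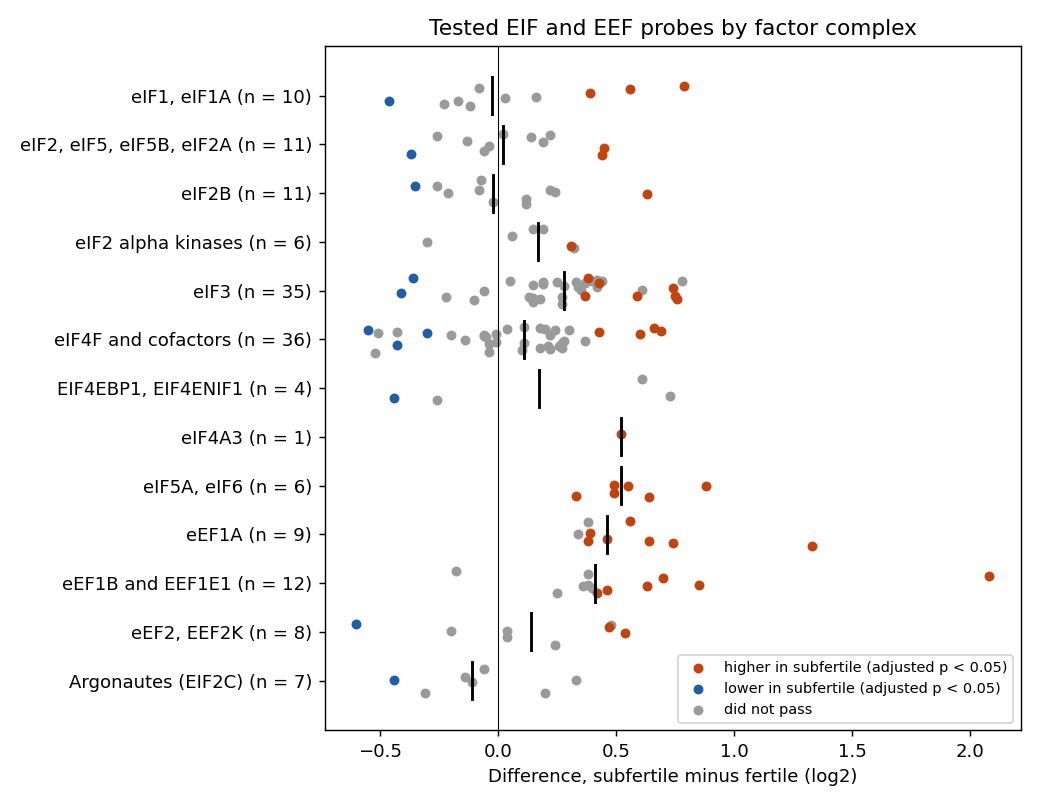
Difference between the groups (x axis, log2, subfertile minus fertile) of each of the 156 tested probes, by factor complex (y axis, with the number of probes), under 75th percentile scaling. Points are probes, black bars are medians and colours give the limma call. All 6 probes of eIF5A and eIF6 and 7 of the 9 of eEF1A were higher in subfertile cows with this scaling, while with quantile normalization 4 of the 6 and 0 of the 9 were. Over all tested probes the shares called higher were 14.8% and 10.2%.

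EIF6, the factor that keeps the large ribosomal subunit from joining too early, was higher in subfertile cows on all 3 of its probes and with both scalings, although none of the 3 passed with a random effect of scan day (adjusted p = 0.0733 to 0.205). At base 436 the subfertile cows had levels of 0.02, 0.17, 0.20, 0.10 and 0.26, against -0.48 to -0.19 with a median of -0.38 in fertile cows. Every subfertile cow thus lay above every fertile cow. The difference was 0.49 ± 0.09 (SE, adjusted p = 0.00483), or 1.41-fold, and 0.48 with quantile normalization (adjusted p = 0.00599). At base 522, which shares no sequence with the first, it was 0.33 ± 0.10 (adjusted p = 0.0363), which did not pass without any 1 of 9 cows (all but fertile cow 1 and subfertile cow 1; adjusted p 0.0527 to 0.0870). The third probe, at base 952, differed by 0.49 ± 0.10 (adjusted p = 0.00639), and by 0.31 with quantile normalization (adjusted p = 0.0329).

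EIF5A, which carries the modified residue hypusine, was higher on all 3 tested probes. At base 392 the levels were -1.32, -1.34, -1.60, -1.64 and -1.40 in subfertile cows, against -2.66 to -2.05 with a median of -2.37 in fertile cows. The groups did not overlap, and the difference was 0.88 ± 0.12 (1.84-fold, adjusted p = 0.00122). Quantile normalization gave 0.84 (adjusted p = 0.00204), and the call held when scan day entered as a random effect, under either scaling (adjusted p = 0.0303 and 0.0440). The overlapping probes at bases 1172 and 1189 differed by 0.64 ± 0.17 and 0.55 ± 0.17 (adjusted p = 0.0194 and 0.0425), but with quantile normalization by 0.29 and 0.28 (adjusted p = 0.148 and 0.195). The call at base 1172 was lost without subfertile cow 2 (adjusted p = 0.0523), and that at base 1189 did not survive removal of any 1 of 8 cows (all but fertile cows 4 and 6 and subfertile cow 4; adjusted p 0.0515 to 0.0994). The fourth probe, at base 1138, was above background on 0 arrays.

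**Figure D2:**
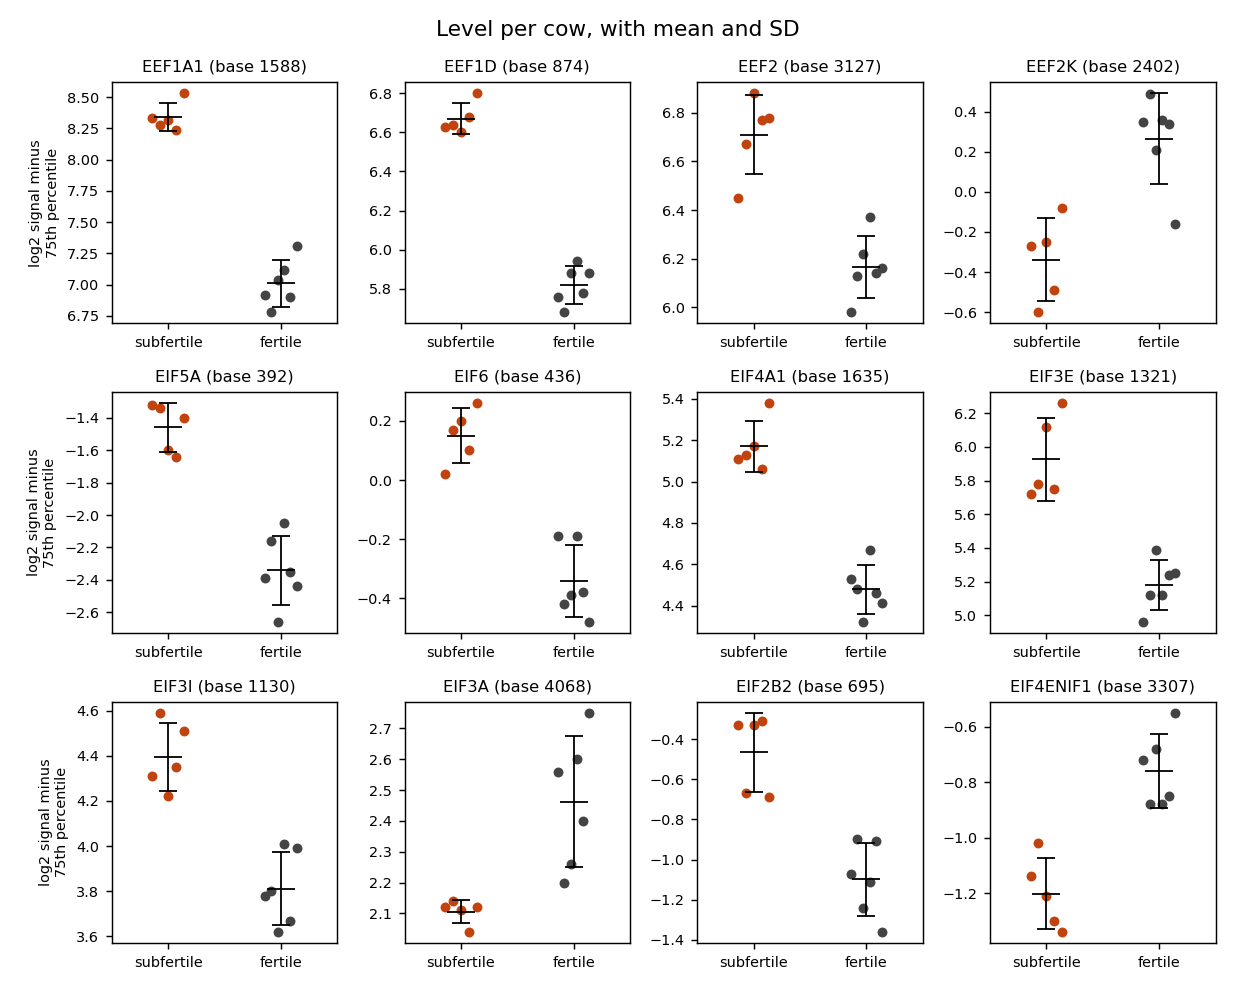
Level of 12 probes (y axis, log2 signal minus the 75th percentile of the array; each panel has its own range) in the 5 subfertile cows on the left and the 6 fertile cows on the right. Points are cows and bars are mean ± SD. For each gene the tested probe with the smallest adjusted p is shown, so the panels are not typical of the members. EEF2K is the panel in which the groups overlap. The groups did not overlap at 23.1% of all tested member probes and at 13.5% of all tested probes. With quantile normalization the difference of this EEF2 probe has the opposite sign (-0.17).

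Of the 29 tested probes of the elongation factors and EEF2K, 15 were higher in subfertile cows with the 75th percentile scaling, and 3 with quantile normalization. Over all tested probes the shares were 14.8% and 10.2%. EEF1A1, which delivers charged tRNAs to the ribosome and is among the most abundant cellular mRNAs, was higher in subfertile cows on 7 of its 9 probes, by 0.38 to 1.33, and the other two differed by 0.34 and 0.38. With quantile normalization its probes ranged from -0.35 to 0.24 and none was higher, while the probe at base 1238 was lower (adjusted p = 0.0184). At base 1588, its brightest probe and the member with the smallest adjusted p (7.72e-05), subfertile cows had levels of 8.33, 8.28, 8.32, 8.24 and 8.53, against 6.78 to 7.31 with a median of 6.98 in fertile cows. That is a difference of 1.33 ± 0.11, or 2.51-fold. After quantile normalization the same probe read 18.23, 18.05, 18.01, 18.10 and 18.05 (log2) in subfertile cows, against 17.96 to 18.04 with a median of 17.98 in fertile cows, so that the groups overlapped. Its raw spot signal was 69.0% to 80.5% of the brightest spot on subfertile arrays and 84.4% to 87.5% on fertile arrays.

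For the overlapping EEF1A1 probes shown above, the pair at bases 638 and 660 differed between the groups by 0.46 and 0.39, and the pair at bases 1213 and 1238 by 0.64 and 0.38. All 4 passed with the 75th percentile scaling (adjusted p = 0.00168 to 0.0146). The probes at bases 884, 977, 1213 and 1588 also passed when scan day entered as a random effect (adjusted p = 0.0036 to 0.0382). EEF1A1 has many processed copies in mammalian genomes, and signal from such copies cannot be separated here.

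Among the subunits of eEF1B, the exchange factor that returns eEF1A to its active form, EEF1D passed and EEF1G did not; the difference between them was not tested. EEF1D was higher in subfertile cows on all 4 of its probes, by 0.42 to 0.85. At base 874 the subfertile cows had 6.63, 6.64, 6.60, 6.68 and 6.80, against 5.68 to 5.94 with a median of 5.83 in fertile cows. The groups did not overlap, with a difference of 0.85 ± 0.09 (1.80-fold, adjusted p = 0.000212) that was 0.23 with quantile normalization (adjusted p = 0.0712). The probes at bases 31 and 100 passed with both scalings, with differences of 0.70 and 0.42, although the first was above background on only 2 subfertile and 5 fertile arrays. EEF1G differed by 0.36 to 0.40 on its 4 probes and none passed (adjusted p = 0.110 to 0.246), and EEF1E1, a partner that sits in the tRNA synthetase complex, differed by -0.18 ± 0.24 (adjusted p = 0.617).

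Probes named EEF1B2, a subunit that performs the exchange, gave different values by the strand on which they were placed. The plus-strand probes at bases 750 and 753 share 57 positions and differed between the groups by 0.46 ± 0.14 (adjusted p = 0.0381) and 0.25 ± 0.13 (adjusted p = 0.188), with -0.08 and -0.07 after quantile normalization. The first call did not survive removal of any 1 of 8 cows (all but fertile cows 4 and 6 and subfertile cow 1; adjusted p 0.0514 to 0.0745). The minus-strand probe had the largest difference of any member, at 2.08 ± 0.35 (4.22-fold, adjusted p = 0.00264). Its levels were -2.26, -2.67, -2.30, -3.13 and -2.32 in subfertile cows, against -5.57 to -3.62 with a median of -4.66 in fertile cows. The fertile cows were widely spread, with the arrays of slide 2 above those of slide 1 by 1.71, but lay below every subfertile cow. The probe differed by 1.98 with quantile normalization (adjusted p = 0.00411), a call that held with a random effect of scan day (adjusted p = 0.0476). Whether its signal comes from EEF1B2 was not tested.

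EEF2, the translocase, was higher in subfertile cows on 2 of its 7 probes, and quantile normalization turned the sign of both. The overlapping probes at bases 3103 and 3127 differed by 0.47 ± 0.10 and 0.54 ± 0.11 (adjusted p = 0.00967 and 0.00538), against -0.31 and -0.17 with quantile normalization (adjusted p = 0.0915 and 0.223). At base 3103 the levels were 6.80, 6.86, 7.08, 6.94 and 6.97 in subfertile cows and 6.31 to 6.68 with a median of 6.41 in fertile cows. The other 5 probes ranged from -0.20 to 0.48 and none passed.

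EEF2K, the kinase that phosphorylates and slows EEF2, was lower in subfertile cows by 0.60 on the log2 scale (a difference of -0.60 ± 0.14, adjusted p = 0.0106) on its single probe. The levels were -0.27, -0.60, -0.25, -0.49 and -0.08 in subfertile cows, against -0.16 to 0.49 with a median of 0.35 in fertile cows. The groups overlapped through fertile cow 6, at -0.16. Quantile normalization gave -0.62 (adjusted p = 0.0107) and the call held with a random effect of slide (adjusted p = 0.0343) but not with scan day (adjusted p = 0.124).

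**Figure D3:**
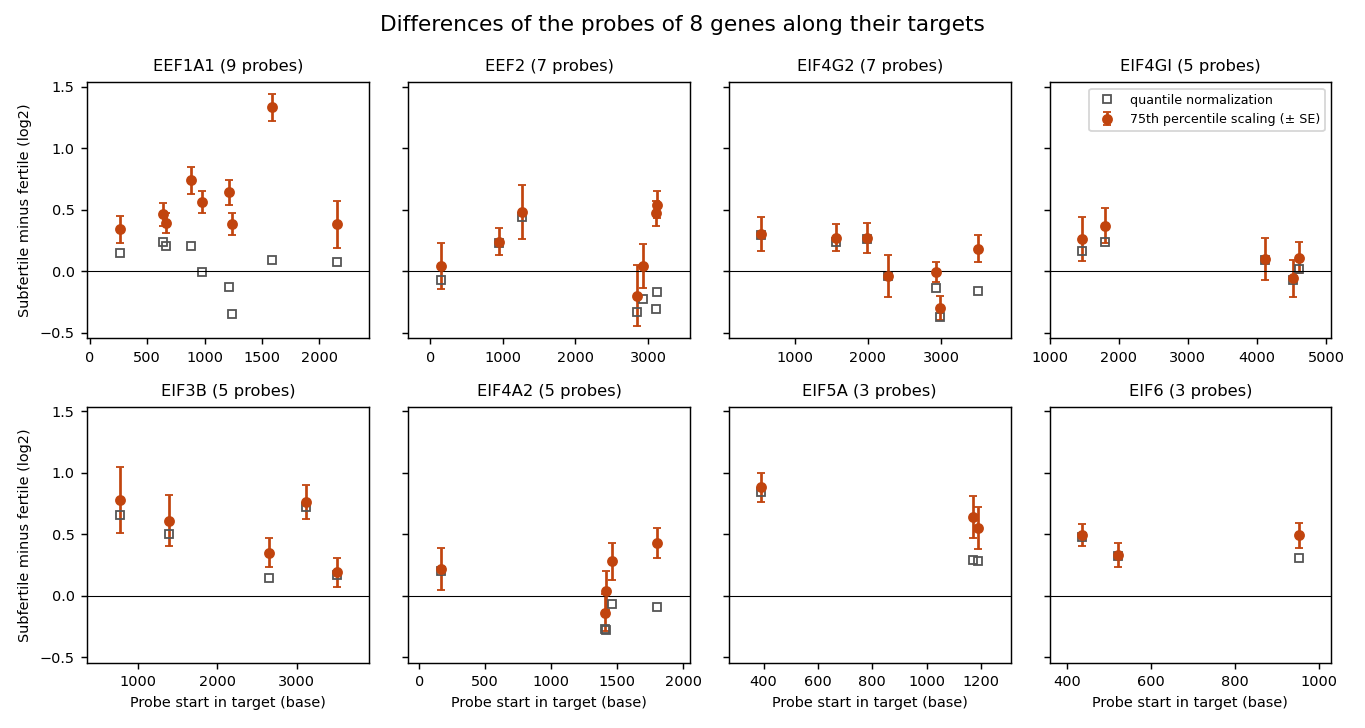
Difference between the groups (y axis, log2, subfertile minus fertile) of every tested probe of 8 genes, against the start of the probe in its target (x axis, bases). Filled circles with bars are 75th percentile scaling ± SE and open squares are quantile normalization. The circle and square lie close together for EIF6 at bases 436 and 522 and for EIF5A at base 392, and apart for EEF1A1 at base 1588 (1.33 and 0.09) and for EEF2 at base 3103 (0.47 and -0.31).

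Most probes of the factors that choose the start codon and carry the initiator tRNA did not pass. In the eIF1 and eIF1A group, 3 of 10 tested probes were higher, all of EIF1, and 1 was lower, against 14.8% and 7.38% of all tested probes. The median of the group was -0.03, and -0.20 with quantile normalization. EIF1, which enforces correct start codon choice, was higher at base 1181 (0.56 ± 0.13, adjusted p = 0.0121), where the levels were 4.36, 4.66, 4.68, 4.38 and 4.81 in subfertile cows and 3.76 to 4.26 with a median of 4.07 in fertile cows. With quantile normalization it was at 0.35 (adjusted p = 0.0611). The call at its brightest probe, base 592 (0.39 ± 0.13, adjusted p = 0.0466), did not survive removal of any 1 of 8 cows (all but fertile cows 4 and 6 and subfertile cow 1; adjusted p 0.0590 to 0.110). EIF1AX, a scanning factor, was lower at base 552 (-0.46 ± 0.12, adjusted p = 0.0227), though not at base 507 (-0.12, adjusted p = 0.485), which overlaps it. That call was lost without subfertile cow 2 or 3 (adjusted p 0.0527 to 0.0606). A dim EIF1 probe at base 1049, above background on 4 of 6 fertile arrays, also passed (0.79, adjusted p = 0.0439) but did not without any 1 of 9 cows (all but fertile cows 4 and 5; adjusted p 0.0560 to 0.0998). The remaining EIF1 probe was at -0.08, EIF1B at -0.23 ± 0.10 (adjusted p = 0.128), and the EIF1AD probes at -0.17 and 0.16.

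Among the 3 subunits of eIF2, EIF2S1 and EIF2S3 each had 1 probe called higher and EIF2S2 had 1 called lower. Differences between the subunits were not tested. EIF2S1, the alpha subunit on which stress kinases act, was at 1.40, 1.45, 1.51, 1.53 and 1.74 in subfertile cows, against 0.64 to 1.33 with a median of 1.21 in fertile cows, at base 1532. The groups did not overlap and the difference was 0.45 ± 0.14 (adjusted p = 0.0362). It was 0.42 with quantile normalization (adjusted p = 0.0481). The call with 75th percentile scaling did not hold without any 1 of 6 cows (fertile cows 1 and 3 and subfertile cows 2, 3, 4 and 5; adjusted p 0.0529 to 0.0869). The probe at base 1568, which differs from it at 1 of the 24 shared positions, was at 0.22 ± 0.28 (adjusted p = 0.603). EIF2S3, the gamma subunit that binds the tRNA, was higher by 0.44 ± 0.13 (adjusted p = 0.0271), and by 0.22 with quantile normalization (adjusted p = 0.162). Without fertile cow 1, subfertile cow 3 or subfertile cow 5 its adjusted p was 0.0531 to 0.0618. EIF2S2, the beta subunit, was lower at base 932 (-0.37 ± 0.10, adjusted p = 0.0206; 0.0580 without subfertile cow 2) and at 0.19 at base 1250 (adjusted p = 0.137). EIF5, which triggers GTP hydrolysis on eIF2, EIF5B, which joins the subunits, and EIF2A did not pass on any of their 6 probes, which ranged from -0.26 to 0.14.

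Within eIF2B, which recharges eIF2 with GTP, 1 of 11 probes was higher and 1 lower, against 14.8% and 7.38% of all tested probes. EIF2B2 was higher at base 695, with -0.33, -0.67, -0.33, -0.31 and -0.69 in subfertile cows and -1.36 to -0.90 with a median of -1.09 in fertile cows. The difference was 0.63 ± 0.12 (1.55-fold, adjusted p = 0.00555) and 0.61 with quantile normalization (adjusted p = 0.00654), but its other probe, at base 1369, was at -0.02 (adjusted p = 0.901). EIF2B4 was lower at base 970 (-0.35 ± 0.10, adjusted p = 0.0227; 0.0561 without subfertile cow 5), while its brightest probe was at -0.26 ± 0.12 (adjusted p = 0.126). The brightest probe of EIF2B1 was at 0.12 ± 0.09 (adjusted p = 0.368), and EIF2B5, the catalytic subunit, was at -0.08 ± 0.13 (adjusted p = 0.698).

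Of the kinases that inhibit eIF2, EIF2AK1, which responds to lack of haem, was higher by 0.31 ± 0.10 (adjusted p = 0.0447) and by 0.30 with quantile normalization (adjusted p = 0.0509). That call, at base 2781, did not survive removal of any 1 of 10 cows (all but fertile cow 5; adjusted p up to 0.0989). The other EIF2AK1 probe was at 0.32 and did not pass. EIF2AK2, the sensor of double-stranded RNA, was at 0.15 ± 0.11 on its brighter probe (adjusted p = 0.351) and at -0.30 ± 0.15 at base 1677 (adjusted p = 0.174), where it was lower with quantile normalization (-0.43, adjusted p = 0.0422). EIF2AK3, the sensor of unfolded protein in the endoplasmic reticulum, was at 0.06 ± 0.12 (adjusted p = 0.735).

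The eIF3 complex, the scaffold on the small subunit, had 30 of its 35 tested probes above 0, of which 7 passed as higher, and 2 passed as lower. Over all 156 tested members 109 were above 0, and 14.8% of all tested probes were higher and 7.38% lower. With quantile normalization 3 of the 35 eIF3 probes were higher and 2 lower, against 10.2% and 9.87% of all. The eIF3 median was then 0.15 in place of 0.28. With a random effect of slide 4 eIF3 probes were higher and 0 lower, against 8.52% and 3% of all. With one of scan day 0 were higher and 0 lower, against 2.47% and 0.599% of all. EIF3E was higher at base 1321, with levels of 5.72, 5.78, 6.12, 5.75 and 6.26 in subfertile cows and 4.96 to 5.39 with a median of 5.18 in fertile cows. The difference was 0.75 ± 0.13 (1.68-fold, adjusted p = 0.00296) and 0.35 with quantile normalization (adjusted p = 0.0444), while its probe at base 983 was at 0.18 (adjusted p = 0.307). EIF3I, at base 1130, had 4.31, 4.59, 4.22, 4.35 and 4.51 in subfertile cows, against 3.62 to 4.01 with a median of 3.79 in fertile cows, a difference of 0.59 ± 0.11 (adjusted p = 0.00458). It was 0.39 with quantile normalization (adjusted p = 0.0173). Only 1 of the 3 EIF3I probes passed, and their differences ranged from 0.27 to 0.59. EIF3B was higher at 1 of its 5 probes (0.76 ± 0.14 at base 3122, adjusted p = 0.00433), with the other 4 at 0.19 to 0.78.

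EIF3K was higher on 3 of its 4 probes and EIF3G on 1 of 2, and none of these passed with quantile normalization. For EIF3K the overlapping probes at bases 708 and 711 differed by 0.38 and 0.43 (adjusted p = 0.0346 and 0.00832). The dim probe at base 102 differed by 0.74 (adjusted p = 0.0491) and was above background on only 1 subfertile and 4 fertile arrays. The calls at bases 102 and 708 did not survive removal of 9 and 8 of the cows in turn. EIF3G, an RNA-binding subunit, differed by 0.37 ± 0.10 at base 1065 (adjusted p = 0.0248), which did not pass without fertile cow 1, subfertile cow 2 or subfertile cow 5 (adjusted p 0.0527 to 0.0627), and by 0.42 at base 403 (adjusted p = 0.0515). EIF3CL, EIF3D, EIF3F, EIF3H, EIF3L and EIF3M had 15 tested probes, from -0.10 to 0.40, and none passed.

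Lower eIF3 members were EIF3A and EIF3J. EIF3A, the largest core subunit, stood at 2.12, 2.14, 2.11, 2.04 and 2.12 in subfertile cows at base 4068, below the range of 2.20 to 2.75 with a median of 2.48 in fertile cows. The difference was -0.36 ± 0.11 (adjusted p = 0.0419), -0.44 with quantile normalization (adjusted p = 0.0154), and the call did not survive removal of any 1 of 9 cows (all but fertile cows 2 and 3; adjusted p 0.0592 to 0.0813). The other EIF3A probe, at base 2647, was at -0.22 and did not pass. EIF3J, a loosely bound subunit, was lower at base 624 (-0.41 ± 0.10, adjusted p = 0.0152) and at 0.15 at base 1266 (adjusted p = 0.315).

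The cap-binding machinery was mixed, with 4 of 36 probes higher, 3 lower and a median of 0.11 that was -0.04 with quantile normalization. Over all tested probes 14.8% were higher and 7.38% lower, with a median of 0.07. EIF4A1, the RNA helicase of eIF4F, was higher at base 1635, with 5.11, 5.13, 5.17, 5.06 and 5.38 in subfertile cows and 4.32 to 4.67 with a median of 4.47 in fertile cows. The groups did not overlap, and the difference of 0.69 ± 0.10 (1.61-fold, adjusted p = 0.00122) was 0.42 with quantile normalization (adjusted p = 0.00797). It held with a random effect of scan day (adjusted p = 0.0319), but not when that was joined to quantile normalization (adjusted p = 0.0958). Its probe at base 600 was at 0.11 ± 0.31 (adjusted p = 0.816). EIF4A2, its close relative, was higher at 1 of 5 probes (0.43 ± 0.12 at base 1803, adjusted p = 0.0272), which was at -0.09 with quantile normalization and lost its call without fertile cow 4 or subfertile cow 3, 4 or 5 (adjusted p 0.0517 to 0.0650). The overlapping EIF4A2 probes shown above were at -0.14 and 0.04 (adjusted p = 0.539 and 0.868).

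Other members of the cap-binding group did not give a common direction. EIF4E, which binds the cap, was at 0.18 to 0.24 on 3 overlapping probes (adjusted p = 0.159 to 0.226). EIF4GI, the scaffold now called EIF4G1, ranged from -0.06 to 0.37 on 5 probes and none passed. EIF4E2, a cap-binding repressor, was lower on 2 probes (-0.55 ± 0.11 at base 811, adjusted p = 0.00547, and -0.43 ± 0.13 at base 71, adjusted p = 0.0402) and at 0.21 and 0.22 on the others (adjusted p = 0.148 and 0.241). The call at base 71 did not survive removal of any 1 of 7 cows (fertile cows 3, 4 and 6 and subfertile cows 1, 2, 3 and 4; adjusted p 0.0645 to 0.0879). EIF4E1B, the relative of EIF4E known from oocytes, was called higher at 0.66 ± 0.22 (adjusted p = 0.0489), but was above background on only 2 subfertile and 5 fertile arrays and did not pass without any 1 of 10 cows (all but subfertile cow 3; adjusted p 0.0522 to 0.0899).

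The helicase cofactor EIF4H was higher at base 859 (0.60 ± 0.18, adjusted p = 0.0339) and at -0.51 and -0.06 on its other tested probes (adjusted p = 0.105 and 0.665), and the call did not hold without any 1 of 7 cows (fertile cows 1, 3, 4 and 6 and subfertile cows 2, 3 and 4; adjusted p 0.0540 to 0.0815). EIF4G2, a scaffold relative that lacks the eIF4E site, was lower at 1 of 7 probes (-0.30 ± 0.10 at base 2984, adjusted p = 0.0492), while the others ranged from -0.04 to 0.30, and that call did not hold without any 1 of 9 cows (all but fertile cow 5 and subfertile cow 1; adjusted p 0.0545 to 0.104). EIF4B, EIF4E3 and EIF4G3 did not pass on any probe (-0.52 to -0.01), although EIF4B was lower at base 1932 with quantile normalization (-0.37, adjusted p = 0.0331).

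Regulators of eIF4E had differences of both signs, and the contrast between them was not tested. EIF4ENIF1, which carries eIF4E into the nucleus and holds it in repressed particles, was lower at base 3307, with -1.14, -1.02, -1.21, -1.30 and -1.34 in subfertile cows and -0.88 to -0.55 with a median of -0.79 in fertile cows. The difference was -0.44 ± 0.10 (adjusted p = 0.0110), -0.47 with quantile normalization (adjusted p = 0.00962). The other tested EIF4ENIF1 probe was at -0.26 and did not pass. EIF4EBP1, the inhibitor controlled by mTOR, was at 0.73 ± 0.32 and 0.61 ± 0.25 on its probes and did not pass (adjusted p = 0.121 and 0.101). EIF4A3, a relative of EIF4A1 that belongs to the exon junction complex, was higher, with 2.95, 3.25, 3.21, 3.05 and 3.17 in subfertile cows and 2.50 to 2.74 with a median of 2.59 in fertile cows (0.52 ± 0.09, adjusted p = 0.00375). With quantile normalization it was at 0.41 (adjusted p = 0.0134). Among the Argonautes, EIF2C2 (now AGO2) was lower at base 3453 (-0.44 ± 0.11, adjusted p = 0.0195) and at 0.33 at base 2313 (adjusted p = 0.0730), and EIF2C1 (now AGO1) was at 0.20 ± 0.09 (adjusted p = 0.138). The single EIF2C3 probe and both EIF2C4 probes were at -0.31 to -0.11, and none passed.

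Probes of the same gene often disagreed in sign, as they did over the whole array. Of 48 member genes with at least 2 tested probes, 27 (56.2%) had all probes on 1 side of 0, against 58.3% of the 7951 names with at least 2 tested probes. Only EEF1D, EIF5A and EIF6 had every tested probe past the threshold. The lowest and highest probe of a gene lay 0.34 apart in the median, and 0.36 over all names. Calls in both directions were found in 0 member genes and in 1.33% of all names. The 16 pairs of overlapping probes differed in their group difference by a median of 0.09, with a median correlation of 0.87 over the 11 arrays after group means were taken out. The 187 other pairs differed by a median of 0.24, with a median correlation of 0.37. Overlapping probes share 15 to 58 of their 60 positions, of which up to 3 differ in base, and all values of a gene share their arrays.

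With the 75th percentile scaling the share of probes called higher was greatest among the brightest probes of the array. The members were bright, with 74 of 156 (47.4%) in the top 20% of tested probes by mean signal and 46 in the top 5%. In the brightest 1% of all tested probes, 82.8% were called higher and 0 were called lower, with a median difference of 0.74, and all 10 members there were called higher. Between the 95th and 99th percentile 28.4% of all probes were higher and 2.43% lower, and 15 of the 36 members there were higher and 0 lower. Between the 80th and 95th percentile 14% of all were higher and 5.98% lower, and 1 of 28 members was higher and 4 were lower. Among the 33 members between the 60th and 80th percentile, 4 were higher and 1 was lower, against 10.1% higher and 10.1% lower of all probes there. Between the 40th and 60th percentile 5 of 25 members were higher and 3 lower, against 13.1% and 10% of all. Between the 20th and 40th percentile 1 of 15 was higher and 3 were lower, against 16.7% and 6.64%. In the dimmest 20% 4 of 9 members were higher and 0 lower, against 13.7% and 5.16%. With quantile normalization 11.6% of the brightest 1% were higher and 7.84% lower, and 0 of the 10 members there were higher and 1 was lower. The part of signal range in this was not tested.

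**Figure D4:**
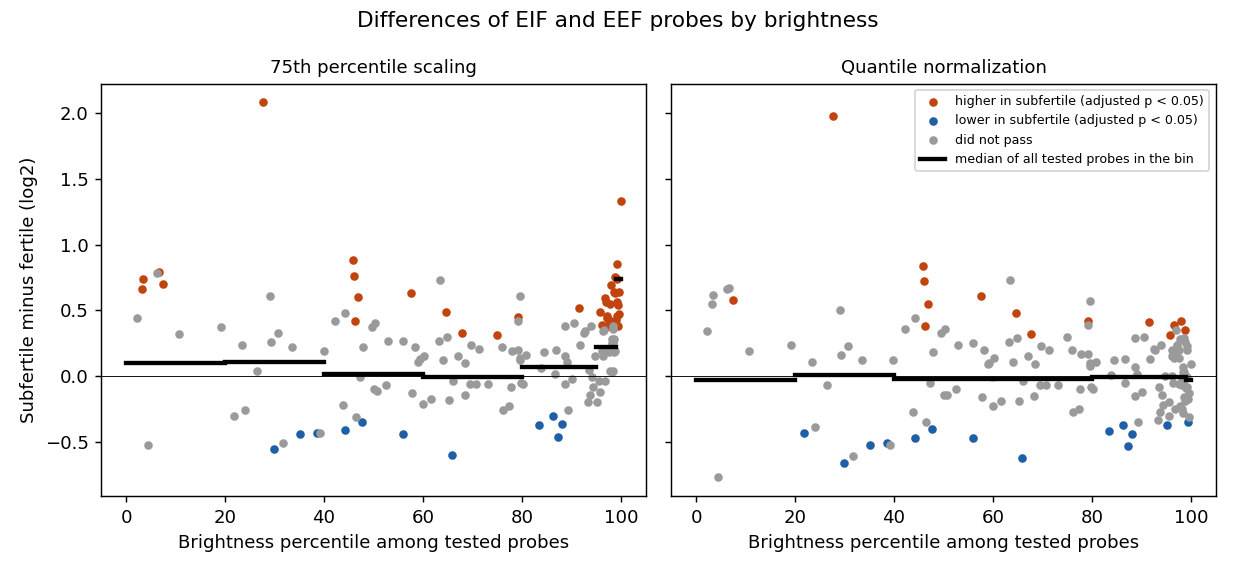
Difference between the groups (y axis, log2, subfertile minus fertile) against the percentile of mean signal among the 31877 tested probes (x axis), with 75th percentile scaling on the left and quantile normalization on the right. Points are member probes coloured by call, and black lines are the medians of all tested probes in a bin. The line is at 0.74 in the brightest 1% on the left and at -0.03 on the right.

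Genes known in human and mouse to carry the TOP leader sequence, which couples their translation to mTOR, include 9 tested members. With 1 probe a gene, 5 of the 9 were higher and 0 lower, with a median of 0.46. Over all 18505 named targets with 1 probe each, 14.2% were higher and 7.88% lower, with a median of 0.06. With quantile normalization 1 of the 9 was higher and 0 lower, with a median of -0.05, against 9.67% higher and 10.3% lower of all targets. Among 17 other genes of cap, poly(A) and start site handling, 4 were higher and 2 lower (median 0.02), and 3 and 2 with quantile normalization. GIGYF2, a partner of EIF4E2 in repression, was lower on 1 of its 2 tested probes (-0.56 ± 0.08, adjusted p = 0.00134). PABPC4, a poly(A) binding protein, was higher on 1 of its 3 (0.62 ± 0.09, adjusted p = 0.00159). Both passed with quantile normalization too, at -0.62 and 0.52.

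In the list of 11 other elongation, termination and rescue genes, 1 was higher and 0 lower (median 0.19), and none was either with quantile normalization. For this and the next lists, 14.2% of all named targets with 1 probe each were higher and 7.88% lower. TPT1, the translationally controlled tumour protein, was higher (1.15 ± 0.12, adjusted p = 0.000285) on all 5 of its probes but stood at 0.06 with quantile normalization (adjusted p = 0.750), and DPH2, which helps make the diphthamide residue of eEF2, was at 0.27 ± 0.10 (adjusted p = 0.0692). Of 9 mitochondrial translation factors 0 were higher and 2 lower (median -0.16), namely MTIF2 (-0.81 ± 0.15, adjusted p = 0.00405) and MTRF1 (-0.30 ± 0.09, adjusted p = 0.0351). Of 11 genes that read out the response to eIF2 alpha phosphorylation, 1 was higher, 1 lower and 9 neither (median 0.07). With quantile normalization 1 was higher and 1 lower (median -0.03). CEBPB was higher on 2 of its 2 tested probes (1.92 ± 0.55 on the brighter, adjusted p = 0.0293). SESN2 was lower on 1 of its 2 (-0.36 ± 0.10, adjusted p = 0.0297). ATF4 was at 0.37 ± 0.14 and did not pass (adjusted p = 0.0832), and was at 0.03 with quantile normalization.

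Markers of the cell types of the endometrium were present in both groups and some differed between them. Over all named targets with 1 probe each, 14.2% were higher and 7.88% lower, and 9.67% and 10.3% with quantile normalization. The mean level of 17 epithelial markers was 1.71 to 2.17 in subfertile cows and 1.03 to 1.74 in fertile cows, and 9 were higher and 0 lower, but with quantile normalization 3 were higher and 0 lower. That of 12 stromal markers was 2.43 to 2.77 in subfertile cows and 2.77 to 3.02 in fertile cows, with 2 higher and 2 lower, but with quantile normalization 0 higher and 4 lower. For 9 ciliated cell markers the levels were -2.12 to -0.14 and -2.61 to -1.57 in the same order, with 3 higher and 0 lower, and for 8 smooth muscle markers 2.56 to 4.94 and 1.12 to 3.55, with 2 higher and 0 lower (1 and 0 with quantile normalization). Of 11 leukocyte markers 1 was higher and 1 lower (-2.07 to -1.65 in subfertile and -2.09 to -1.37 in fertile cows), of 9 endothelial markers 2 were higher and 0 lower (-0.82 to 0.03 and -0.95 to -0.46), and of 6 erythroid markers 1 was higher and 1 lower (-5.19 to -2.81 and -4.92 to -3.86). Their part in the differences of the factors was not tested.

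The 40 higher probes had a median GC content of 45.0%, the 11 lower ones 38.3% and those that did not pass 45.0%.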

How the data were processed

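Cy3-labelled total RNA of 11 biopsies was measured on bovine 1-colour arrays of Agilent, as the labels' protocols describe. The deposited scanner files hold linear intensity values, and per the submitters' processing notes they were made with version 10.5.1.1 of Feature Extraction; the deposited log2 table of the authors was used as an alternative. Set against the scanner values, that table was log2 signal relative to the 75th percentile with each probe centred on its median (column medians -0.082 to 0.092, r = 0.988 for fertile cow 1 and at least 0.999 for the others), with the direction of the scanner values. For fertile cow 6, whose deposited file has no header, names were taken by probe from the other files. Scanner flags were deposited with the values.

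Control spots and outlier spots were left out, log2 processed signal minus each array's 75th percentile was tested with limma 3.58.1 in R 4.3.3 for probes well above background on at least 5 of 11 arrays (31877 probes), with Benjamini-Hochberg adjustment over all of them and a threshold of 0.05. A gene was represented by its brightest tested probe where the text does not name a position. Named genes were the 10 with the largest difference each way among those past the threshold, the 2 with the smallest p in each complex or list, a fixed set of core factors, genes called in opposite directions, and genes with no probe above background; other probes and genes were named after their values were seen. The members, lists and rule were chosen with earlier results of these data known.

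Precision is limited by the number of arrays. On simulated data for this comparison over 31877 probes, 57% of simulated 2-fold changes and 90% of simulated 4-fold changes were recovered. Of 154 calls made there, 7 were false. The measured arrays gave 4716 higher and 2351 lower calls, and their slides and scan days cannot be separated from group. Whether the simulated rates hold for the measured arrays was not tested. Slide and scan day, read from headers, were entered as random blocks (consensus correlation 0.447 and 0.315). Fertile cow 6, whose slide and scan day are not known, was entered as a slide and a day of its own. Other settings tried were quantile normalization, median centring, normexp with an offset of 50, removal of a brightness trend (spline of 5 degrees of freedom), other filters, array weights, robust variance, the mean over a gene's probes, a threshold of 0.1, leaving out each cow, and the replicate number as a block. Gene symbols were updated from a RefSeq gene table of assembly ARS-UCD2.0 by accession (125 member probes), symbol (35) or older symbol (4), and 8 kept the file's name.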

Additional observations from a re-analysis of the deposited data

Results flagged for a closer look

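EIF2B5, the catalytic subunit of eIF2B, was at 0.67 in subfertile cow 1, apart from the other subfertile cows at 1.11 to 1.28, all on the log2 scale relative to the 75th percentile. It was the 1 case in which a cow stood far from its group, among 62 groups of values examined (30 named genes and the median of all members, in each group), where chance gives about 5% of groups. Leaving this cow out did not bring the gene past the threshold.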

How the results depend on the processing

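The number of factor probes called higher (40) was 15 with quantile normalization, 25 with median centring, 18 with the brightness trend removed, 24 with slide, 9 with scan day and 26 with the replicate block, and, chosen after seeing the data, 8 and 2 with quantile normalization joined to slide or to scan day. The number lower (11) was 3 with slide, 0 with scan day, 2 with the replicate block and 0 with quantile normalization and scan day. Leaving out 1 cow gave 27 to 38 higher and 6 to 10 lower, with 6 without subfertile cow 2 and 7 without subfertile cow 3. Over all probes the higher calls (4716) were 14920 with normexp, 9644 with no filter, 2715 with slide, 786 with scan day, 3039 with the replicate block, and 1714 and 342 with quantile normalization joined to slide or day. The lower calls (2351) were 957, 191, 1324 and 187 for slide, day and the joined settings; leaving out 1 cow gave 3163 to 4644 higher and 1364 to 2654 lower.

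The median of the members (0.22) was 0.08 with quantile normalization, 0.13 with median centring, 0.09 with the brightness trend removed and 0.10 with either joined setting; normexp moved the median of all probes from 0.07 to 0.33. Medians of complexes moved with quantile normalization to 0.09 (eEF1A), -0.20 (eEF2 and kinase), -0.20 (eIF1 and eIF1A), 0.41 (eIF4A3), -0.04 (eIF4F), 0.32 (eIF5A and eIF6) and -0.05 (TOP genes), with the brightness trend removed to 0.11, -0.17, -0.22, 0.11 (eIF3), -0.04, 0.30 and -0.09, and with the joined settings (slide, then day) to 0.10 and 0.09 (eEF1A), -0.20 and -0.18 (eEF2), -0.21 and -0.20 (eIF1), 0.31 and 0.32 (eIF5A and eIF6) and -0.06 and -0.05 (TOP genes). Normexp moved the Argonautes to 0.11, the eIF2 alpha kinases to 0.40, the eIF4E regulators to 0.58 and the cap and poly(A) list to 0.31.

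Signs turned at called genes with quantile normalization for EEF1B2 (-0.08), EEF2 (-0.31) and EIF4A2 (-0.09), with the brightness trend removed for EEF1B2 (-0.11), EEF2 (-0.24), EIF1 (-0.07) and EIF4A2 (-0.13), with the joined settings for EEF1B2 (-0.10 and -0.08), EEF2 (-0.28 and -0.29), EIF1 (-0.00 with slide) and EIF4A2 (-0.06 and -0.06), and with normexp for EIF2C2 (0.11). The cause was not tested. Of the 51 called probes, 30 passed on leaving out any 1 cow, 25 higher and 5 lower. Replicate numbers name different animals: same-numbered cows correlated at -0.21 to 0.22, so they were not treated as pairs. With the replicate block 26 factor probes were higher and 2 lower. The dim probes of EIF4E1B, EIF3K (base 102) and EEF1D (base 31) are limited by signal over background. The EEF1B2 probe at base 1023 was also dim.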
